A study of Sus scrofa with 5 samples.

Results

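The miR-30 family was described across small RNA libraries of pig blastocysts (BLs), embryonic stem cell-like (ES-like) cells, porcine embryoid bodies (PEBs) and pig fetal fibroblasts (PFFs). Members were taken by name, as every mature miRNA called ssc-miR-30a, b, c, d or e in the table of reported miRNAs, with any arm. This gave 10 of the 411 mature names: miR-30a-5p, miR-30b-5p, miR-30c-5p, miR-30d and miR-30e-5p, and on the 3p arm miR-30a-3p, miR-30b-3p, miR-30c-1-3p, miR-30c-3p and miR-30e-3p. All 10 had reads in each of the 5 libraries, and the table has no separate 3p name for miR-30d.

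miRNAs are short RNAs cut from hairpin precursors. Either side of the hairpin, the 5p or the 3p arm, can be loaded into the silencing complex, where the bases near its 5′ end, the seed, pair with messenger RNAs. The 5p products of the miR-30 family share a seed and so are predicted to bind the same messages. The 3p products have other seeds. In human and mouse cells the family is known for repressing genes of the epithelial-mesenchymal transition and of the extracellular matrix, and its levels rise in many tissues as cells mature. In the RefSeq annotation of the pig assembly Sscrofa11.1, the 6 precursor genes lie in 3 pairs of neighbours. MIR30A is next to MIR30C-2, MIR30B is next to MIR30D, and MIR30C-1 and MIR30E both lie inside NFYC, the gene of a subunit of the transcription factor NF-Y.

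BL_1 and BL_2 were pools of day 7 embryos obtained by parthenogenetic activation, in which an oocyte is started without sperm, and were grown in PZM3 medium with serum added during culture. ES-like cells came from a pig blastocyst line grown with serum, stem cell factor and basic fibroblast growth factor on mouse embryonic fibroblasts that had been stopped from dividing. PEBs were clumps of the same ES-like cells, grown in hanging drops without those cytokines. PFFs were cultured from the bodies of early fetuses in medium with serum. Only BLs were sequenced as 2 libraries. BL_1 and BL_2 thus give the only spread between samples. Differences between the 3 cultured libraries were not tested, and their intervals cover counting error only. The labels do not say whether the embryos of BL_1 and BL_2 came from separate collections, so the spread between them may be technical, and p-values measure only the spread between the libraries of each side.

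Mature miRNA reads ranged from 113743 in BL_1 and 2782150 in BL_2 to 27071931 in PFFs, with 6372500 in ES-like cells and 15849954 in PEBs. Levels are given as RPM, the reads of a miRNA per 1000000 mature reads of its library, so that a count of 3 stands for 26.4 RPM in BL_1 but 0.111 RPM in PFFs. Columns were assigned by the library codes in the labels. A summary sheet of the study lists the read totals of ES-like cells and PFFs the other way round. The labels were therefore checked on markers. The summed level of 8 mesenchymal miRNAs was 711221 RPM in PFFs, 328699 in PEBs, 217253 in ES-like cells and from 67327 to 106226 in BLs. Most of the sum in PFFs was miR-21. miR-143-3p, miR-145-5p and miR-199b-5p were also highest in PFFs, while miR-199a-3p, miR-199a-5p and miR-214 were highest in PEBs and miR-10b in BLs. The summed level of 11 pluripotency-linked miRNAs was highest in BLs (348004 to 381237 RPM, most of it miR-371-5p), and lowest in PFFs (9921), with 78601 in PEBs and 152019 in ES-like cells. The other miRNAs of that list were highest in ES-like cells, and miR-17-5p, miR-18a and miR-19a were lower in both BL libraries than in PFFs. miR-18b had 0 reads in both BL libraries and 1.15 RPM in PFFs. As 1 read stands for 8.79 RPM in BL_1, that library cannot place miR-18b below PFFs. ES-like cells and PEBs also carried miR-122, a liver miRNA, at 101004 and 54096 RPM. The part of other cells, mouse feeder cells included, in the miR-30 levels of these libraries was not tested.

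The miR-30 family made up 5.69% of the mature reads of BL_1, with a 95% Wilson interval from 5.56 to 5.83%, and 5.59% in BL_2. It made up 3.92% in PEBs, 3.07% in ES-like cells and 0.733% in PFFs. The BL libraries were thus nearly equal, and PFFs lay lowest. In RPM, BLs had 56406 ± 761 (SD, n = 2), 7.69 times the level of PFFs, 1.84 times that of ES-like cells and 1.44 times that of PEBs. These gaps were larger than the gap between BL_1 and BL_2. They hold within the mature miRNA reads only. The paper reports that miRNAs were a much smaller part of the small RNAs in both BL libraries than in the cultured samples. Levels per small RNA read were not taken. As these are bulk samples, fewer cells with the miRNAs and less of them per cell cannot be told apart. The order of BLs, PEBs, ES-like cells and PFFs was the same under RPM, under edgeR's TMM factors and under DESeq2's size factors, but the sizes moved. With TMM, BLs were 4.39 times PFFs, 2.92 times ES-like cells and 1.39 times PEBs, and with DESeq2's size factors 5.82, 2.85 and 2.18 times. ES-like cells were 4.18 times PFFs in RPM, 1.505 times with TMM and 2.04 times with DESeq2's size factors.

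The level in BLs rested on 1 member, miR-30d, a broadly expressed member that in other mammals is also known from the fluid around the early embryo. miR-30d had 49761 RPM in BL_1 and 46754 in BL_2. PEBs followed with 13744.5, ES-like cells with 11498.5 and PFFs with 2780. The BL values do not overlap with those of any cultured library, and miR-30d was the number 5 miRNA of BL_1 and number 6 of BL_2, but number 15 in PEBs, 17 in ES-like cells and 24 in PFFs. The BL mean of 48257.5 ± 2127 RPM (SD, n = 2) exceeded PFFs 17.4-fold, ES-like cells by a log2 ratio of 2.07 and PEBs 3.51-fold. With TMM the BL level of miR-30d was 9.90 times that of PFFs, 6.65 times that of ES-like cells and 3.39 times that of PEBs, and with DESeq2's size factors 13.1, 6.51 and 5.33 times. Without miR-30d the order turned. The other 9 names together had 7183 RPM in BL_1 and 9115 in BL_2. PEBs had 25487, ES-like cells 19163 and PFFs 4550. BLs then lay 2.35-fold below ES-like cells and 3.13-fold below PEBs, and 1.79-fold above PFFs. With TMM the gaps to ES-like cells and PEBs were 1.48-fold and 3.23-fold. PFFs then lay between BL_1 and BL_2, at 7762 against 6790 and 9130, so that no direction can be given for them on that scale. With DESeq2's size factors, BL_1 and BL_2 had 8452 and 9725, above 6757 in PFFs, and their mean lay 1.53-fold below ES-like cells and 2.08-fold below PEBs.

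**Figure D1:**
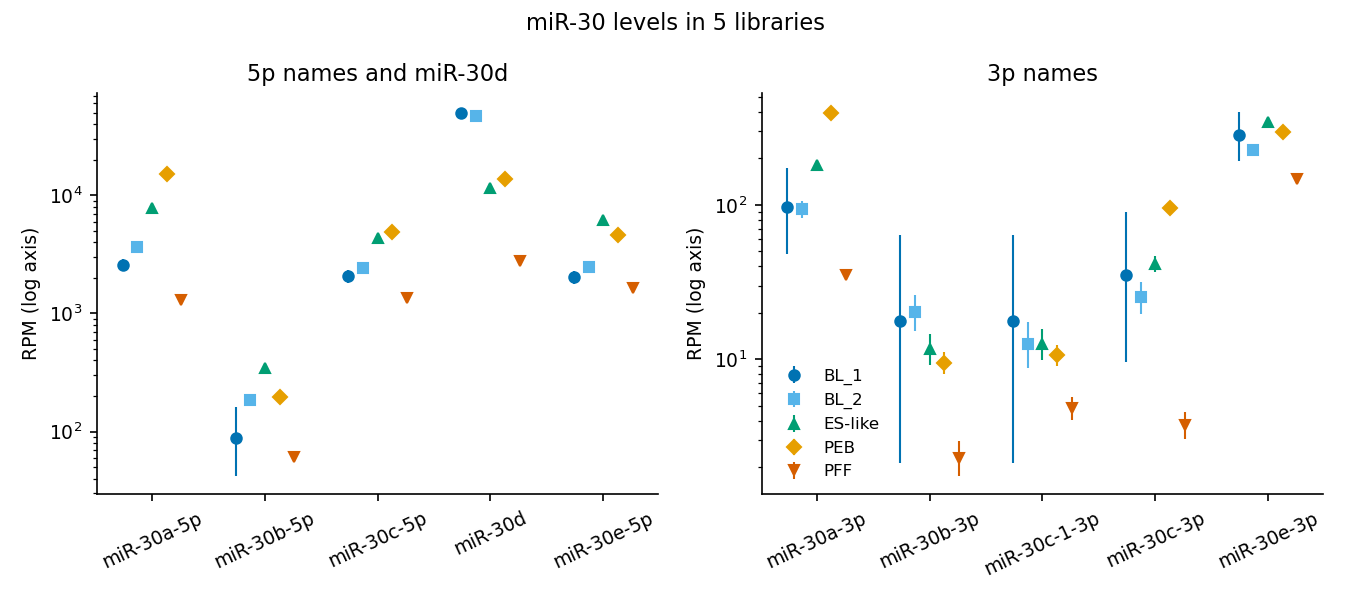
Level of each miR-30 name in 5 libraries, in RPM on log axes, with 5p names and miR-30d on the left and 3p names on the right; points are libraries and bars are 95% Poisson intervals for counting error. miR-30d stands at 46754 and 49761 RPM in the BL libraries, above the cultured libraries, while PFFs hold the lowest point of every name on this scale, which did not hold for every name with TMM or DESeq2's size factors.

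The make-up of the family does not depend on the scaling between libraries. miR-30d held 87.4% of all miR-30 reads in BL_1 (95% Wilson interval 86.6 to 88.2%) and 83.7% in BL_2 (83.5 to 83.9%). Of the cultured libraries, PFFs had 37.9%, ES-like cells 37.5% and PEBs 35.0%. The 3 cultured libraries lay within a few percentage points of one another, and both BL libraries lay far above them. The rest of the reads was divided differently in each cultured library. miR-30a-5p held 38.3% in PEBs, more than miR-30d itself, against 25.3% in ES-like cells, 17.8% in PFFs, 4.49% in BL_1 and 6.54% in BL_2. miR-30e-5p held 22.3% in PFFs and 20.0% in ES-like cells, against 11.7% in PEBs. miR-30c-5p held 18.5% in PFFs, 14.1% in ES-like cells and 12.5% in PEBs. miR-30b-5p was minor in each library, with from 0.154% of the miR-30 reads in BL_1 to 1.13% in ES-like cells.

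**Figure D2:**
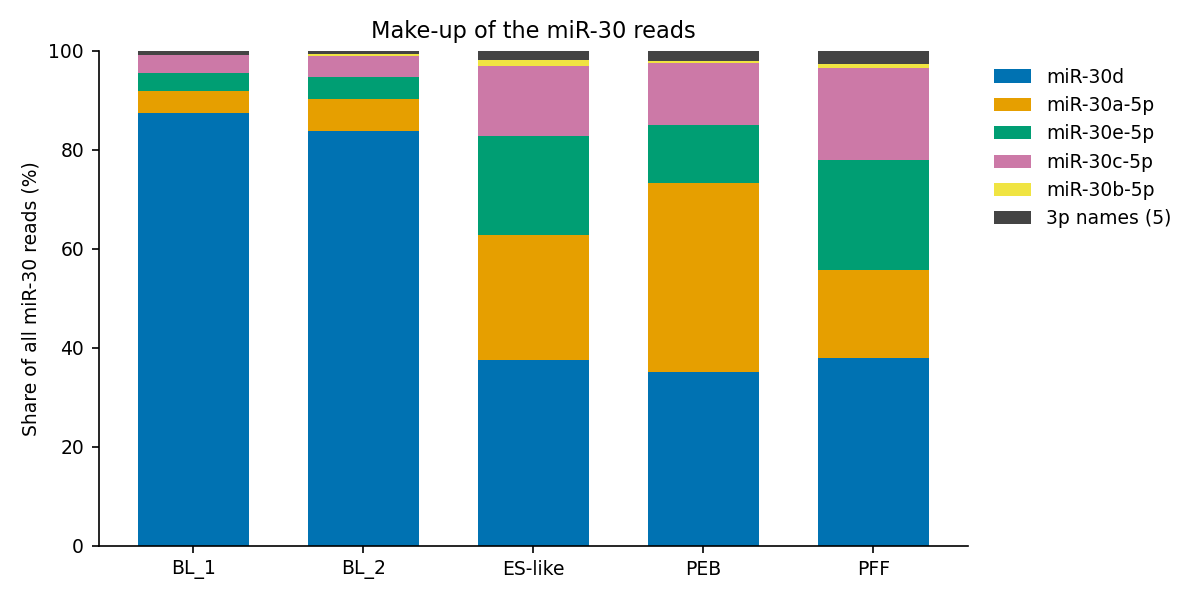
Share of each miR-30 name in all miR-30 reads of a library, in percent, as stacked bars; the 5 names of the 3p arm are summed. miR-30d fills 83.7 to 87.4% of the BL bars and 35.0 to 37.9% of the bars of cultured libraries, and miR-30a-5p is the largest part in PEBs.

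One reservation applies to miR-30c-5p. The table lists it under both precursors, and the paired rows held 117 reads each in BL_1 and 3356 each in BL_2. They held 13742 and 13754 in the ES-like library, 18378 and 18392 in PFFs, and 38769 and 38793 in PEBs. The rows differed by at most 0.0872%, so the same reads were probably counted at both, and the sum over rows used here would count them again. With the larger row alone, the share of miR-30c-5p was 1.84% in BL_1 and 10.21% in PFFs, and that of miR-30d was 89.0% in BL_1, 85.5% in BL_2 and from 37.4 to 41.8% in the cultured libraries. The 5p products of miR-30a, miR-30d and miR-30e are also near-identical in sequence, and the sources used here do not say how a read that fits more than one of them was counted.

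miR-30a-5p, a member studied as a repressor of the transition factor Snail, had 2558 RPM in BL_1 and 3654 in BL_2. It was lowest in PFFs, at 1303, and higher in ES-like cells, at 7770, with its top in PEBs at 15023. In RPM, each gap in this order was larger than that between the BL libraries or, among cultured libraries, than counting error. With TMM the levels were 2418 in BL_1 and 3660 in BL_2, against 2224 in PFFs and 4769 in ES-like cells, and the gaps of BLs to these were smaller than that between the BL libraries. Its 3p partner, miR-30a-3p, had 96.7 and 93.8 RPM in BLs, with 35.2 in PFFs, 181 for ES-like cells and 391 for PEBs, in the same order. PEBs held 11.5 times as much miR-30a-5p as PFFs (log2 ratio 3.53, counting interval 3.51 to 3.54) and 1.93 times as much as ES-like cells. With TMM these ratios were 6.81 and 3.18, and with DESeq2's size factors 5.75 and 1.98.

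miR-30e-5p and miR-30c-5p, whose precursors are neighbours inside NFYC, differed in their top library. miR-30e-5p had 2031 RPM in BL_1 and 2486 in BL_2, with 1635 in PFFs, 4572 in PEBs and 6138 in ES-like cells. Here ES-like cells, not PEBs, were highest in RPM, by 1.34-fold over PEBs, but with TMM PEBs were highest. miR-30c-5p, which a precursor beside miR-30a also gives, had 2057 RPM in BL_1, 2413 in BL_2, 1358 in PFFs, 4894 in PEBs and 4315 in ES-like cells, with PEBs 1.13-fold above ES-like cells. That last gap exceeded counting error, but there is no second library of either cell type to compare it with. With TMM it was 1.86-fold.

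miR-30b-5p, the neighbour of miR-30d, was far lower, with 87.9 RPM in BL_1, 183 in BL_2, 60.7 in PFFs, 196 in PEBs and 347 in ES-like cells. The BL libraries differed 2.09-fold, and the value of BL_1 rested on 10 reads, so that BLs could not be told from any of the 3 cultured libraries by more than the gap between BL_1 and BL_2. Of the 7 members with at least 10 reads in both BL libraries it was the only one to differ by more than 2-fold between them, against 18.3% of the 120 miRNAs with as many reads.

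Members more than 2-fold apart between cell types were then counted, on log2(RPM + 1) and with BLs as the mean of their libraries. Against ES-like cells, BLs had 1 member higher, miR-30d, and 3 lower, miR-30a-5p, miR-30b-5p and miR-30e-5p. With TMM or DESeq2's size factors none of these 3 was 2-fold lower, at log2 ratios from -0.65 to -0.82. Of all 293 miRNAs compared, 76.1% were 2-fold apart, 23.5% higher and 52.6% lower in BLs. Against PEBs, BLs had 1 member higher, again miR-30d (25.3% of all 297), and 5 lower (51.2%, or 76.4% in either direction), namely miR-30a-5p, miR-30a-3p, miR-30c-5p, miR-30c-3p and miR-30e-5p. Of these, miR-30c-5p and miR-30e-5p were under 2-fold with DESeq2's size factors, at -0.54 and -0.42, and 3 members were then higher in BLs and 3 lower. Against PFFs, 7 members were higher in BLs (34.6% of all 295) and 0 were lower (35.6%, or 70.2% in either direction). With TMM 3 were higher, miR-30b-3p, miR-30c-3p and miR-30d. With DESeq2's size factors these 3, miR-30a-3p and miR-30c-1-3p were higher. The median log2 ratio of the members was -0.69 against ES-like cells, -0.77 against PEBs and 1.33 against PFFs, where that of all miRNAs was -1.24, -1.02 and -0.16. Relative to these medians, BLs had 3 members over 2-fold higher and 0 lower against ES-like cells, 3 higher and 2 lower against PEBs, and 7 higher and 0 lower against PFFs. For counts relative to a median, here and below, no share of all miRNAs was taken, so they have no background. The same holds for 2-fold counts with TMM or DESeq2's size factors, as the shares above are those in RPM. Differences between the share of members and that of all miRNAs were not tested. The gap to the cultured library exceeded that between BL_1 and BL_2 for 6 members against ES-like cells, 7 against PEBs and 9 against PFFs in RPM, for 5, 7 and 5 with TMM, and for 6, 8 and 7 with DESeq2's size factors. These counts include 3p names with from 2 to 32 reads in BL_1, whose gap between the BL libraries may be small by counting error alone. For miR-30b-3p, the counting interval in BL_1 was 2.13 to 63.5 RPM and held the levels of all 3 cultured libraries. No share of all miRNAs was taken under this rule, so the counts have no background.

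Between ES-like cells and PEBs, which share their source cells, 0 members were higher in ES-like cells (21.8% of all 285 miRNAs) and 2 were lower (18.6%, or 40.4% in either direction), miR-30a-3p and miR-30c-3p. miR-30a-3p was 2.15 times and miR-30c-3p 2.27 times as high in PEBs, with log2 ratios of ES-like cells over PEBs of -1.11 (counting interval -1.20 to -1.02) and -1.18 (-1.40 to -1.01). With TMM these 2 were 3.55 and 3.79 times as high in PEBs. miR-30d was 1.20-fold higher in PEBs in RPM and 1.96-fold with TMM, under which miR-30a-5p also passed 2-fold. In RPM, ES-like cells had 10 of 10 members higher than PFFs, but 49% of all 292 miRNAs were higher too (16.4% were lower, and 65.4% differed in either direction). With DESeq2's size factors 6 members were higher and with TMM 3, for which no share of all miRNAs was taken. With TMM, miR-30c-1-3p and miR-30e-3p turned to log2 ratios of -0.079 and -0.24. In RPM the median log2 ratio of all 292 miRNAs was 0.96, against 1.99 for the members. Relative to that median, 5 of the 10 were over 2-fold higher. In RPM, PEBs had 9 of 10 members higher than PFFs, against 41% of all 295 miRNAs (13.9% were lower, and 54.9% differed in either direction). The tenth, miR-30c-1-3p, lay at 2.00-fold by rounding, just under the threshold. With TMM 6 members were higher and with DESeq2's size factors 4, for which no share of all miRNAs was taken. Relative to the median of 0.65, where the members had 1.76, 7 were over 2-fold higher.

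**Figure D3:**
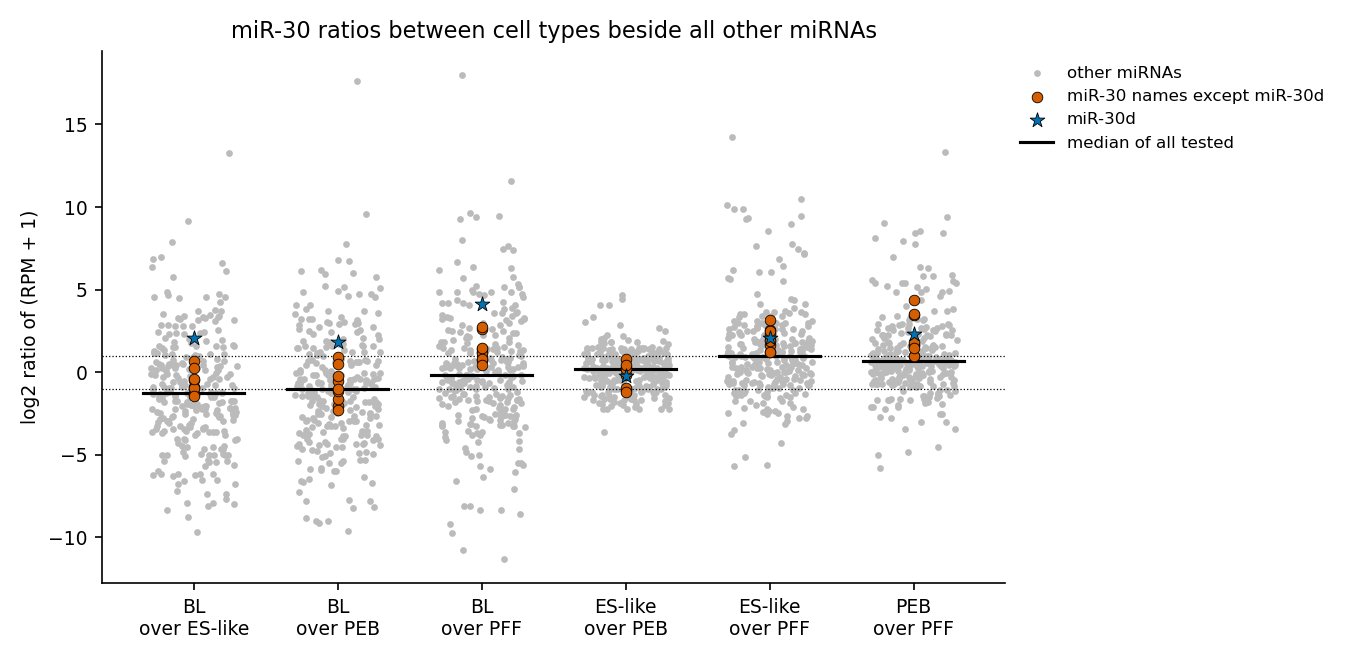
log2 ratio of (RPM + 1) between cell types for every miRNA compared (grey), the miR-30 names except miR-30d (orange circles), miR-30d (blue stars) and the median of all miRNAs compared (black bars), with dotted lines at 2-fold. In comparisons of BLs with ES-like cells and PEBs, miR-30d lies at 2.07 and 1.81, above the other members.

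In RPM, PFFs had the lowest level of all 10 members, against 36.1% of the 305 miRNAs with at least 10 reads in any library. With BLs as their mean, this held for 10 members with DESeq2's size factors (25.2% of all miRNAs) and for 6 with TMM (22.0%). By library, BL_1 was below PFFs for miR-30e-5p with DESeq2's size factors (2390 against 2428) and for miR-30b-5p with TMM (83.1 against 104). With TMM and the BL mean, miR-30c-5p and miR-30e-5p were lowest in BLs, and miR-30c-1-3p and miR-30e-3p in ES-like cells. For miR-30c-5p, however, PFFs (2317) then lay between BL_1 (1945) and BL_2 (2417). miR-21 alone had 522808 RPM in PFFs and miR-371-5p from 296148 to 324635 in BLs, and their part in the difference between scalings was not tested. TMM multiplied the RPM values of PFFs by 1.71 and those of ES-like cells by 0.614.

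The test that the replicates allow was edgeR's quasi-likelihood test on all miRNAs that had over 5 reads in 2 or more libraries. Comparing the 2 BL libraries with the 3 cultured libraries, it called 35 of 295 miRNAs, or 11.9%, and 0 of the 10 members. Leaving out a library changed the number of calls to 2 without BL_1, 1 without BL_2, 25 without ES-like cells, 1 without PEBs and 116 without PFFs. miR-30d came nearest, at a Benjamini-Hochberg adjusted p of 0.0665 from edgeR's quasi-likelihood test. Its log2 fold change was 2.56 ± 0.76 (standard error, here and below derived from the F statistic of that test). miR-30d was higher in 2 of 2 BL libraries than in each of the 3 others, and was the 1 member with an unadjusted p under 0.05. DESeq2 called miR-30d (adjusted p = 0.00152, 33.9% of all miRNAs called). It was also called by edgeR with DESeq2's size factors (adjusted p = 0.0469), where 47 of 295 miRNAs were. edgeR without PFFs called miR-30d too (adjusted p = 0.0126), with 116 of 286 miRNAs called. Over the alternatives its adjusted p from edgeR or DESeq2 ranged from 0.00152 to 0.269, the latter without BL_2. The other 9 members had log2 fold changes from -1.15 for miR-30a-5p to 1.56 for miR-30b-3p, with adjusted p-values from 0.231 to 0.960 in edgeR's test. The cultured side holds 3 cell types, so its spread includes the differences between them. The lower depth of the BL libraries and their smaller part of miRNAs cannot be told apart from the embryo origin.

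A second comparison set pluripotent (BLs and ES-like cells) against differentiated samples (PEBs and PFFs). In this comparison edgeR's test called 0 of 295 miRNAs (0%) and 0 of the 10 members, with 30 miRNAs and 0 members at an unadjusted p under 0.05. DESeq2 called 15 miRNAs (5.08%) and 0 members. Without ES-like cells this comparison is the same fit as that of BLs against cultured libraries without ES-like cells, with its 25 calls. miR-30d had the lowest adjusted p of the members in edgeR's test, 0.553, at 2.00 ± 1.30 (log2 fold change ± standard error), and its value in PEBs lay above that in ES-like cells. For miR-30a-5p the value was -1.11 ± 1.08 (adjusted p = 0.740 in edgeR's test), and PEBs and PFFs, on the same side, held its highest and lowest levels.

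Ratios between members within a library compare the reads named for the 3 pairs of neighbouring genes, again without any scaling. What each gene contributed was not tested. The 2 miR-30c precursors share their 5p product, but their 3p products have names of their own, miR-30c-1-3p for the precursor inside NFYC and miR-30c-3p for the one beside miR-30a. Reads of miR-30c-3p over those of miR-30c-1-3p were 4 to 2 in BL_1, 70 to 35 in BL_2, 265 to 80 for ES-like cells and 1518 to 168 for PEBs, while PFFs had more of miR-30c-1-3p. The ratio was thus 2.00 in BL_2 (95% exact interval 1.31 to 3.09), 3.31 in ES-like cells (2.57 to 4.31), 9.04 in PEBs (7.70 to 10.7) and 0.777 in PFFs (0.593 to 1.02). PEBs stood apart at the upper end and PFFs at the lower end, while the 6 reads of BL_1 gave an interval from 0.287 to 22.1.

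Ratios of the partners of these precursors had the same extremes. miR-30a-5p over miR-30e-5p was 1.26 in BL_1, 1.47 in BL_2, 0.797 in PFFs, 3.29 in PEBs and 1.27 in ES-like cells. miR-30a-3p over miR-30e-3p was 0.344, 0.413, 0.240, 1.32 and 0.525 in the same libraries. In both ratios PEBs were highest and PFFs lowest, and the intervals of these libraries did not overlap with those of the others, except that the wide interval of BL_1 for the 3p ratio (from 0.1563 to 0.6999) reached into that of PFFs. The reads of the pair beside miR-30a were therefore in greatest excess over those of the pair inside NFYC in PEBs.

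For the third pair of neighbours, miR-30d and miR-30b, the ratio was taken within the pair, so its extremes are not comparable with those above. miR-30d over miR-30b-5p was 566 in BL_1 (95% exact interval 308 to 1181) and 255 in BL_2 (234 to 279), while ES-like cells had 33.1, PFFs 45.8 and PEBs 70.2. A high miR-30d level in BLs was thus not matched by its neighbour on the 5p arm. The 3p product of that neighbour, miR-30b-3p, had 17.6 and 20.1 RPM in BLs, with 2.29 in PFFs, 9.46 in PEBs and 11.6 in ES-like cells, and so was, like miR-30d, highest in BLs, although on 2 reads in BL_1 and 56 in BL_2. Ratios within the other pairs differed between libraries too. miR-30a-3p over miR-30c-3p was 9.43 in PFFs (7.67 to 11.7), against 3.73 in BL_2, 4.08 in PEBs and 4.36 in ES-like cells. In BL_1 it was 2.75, with an interval from 0.815 to 11.8. miR-30e-5p over miR-30c-1-3p was 115.5 in BL_1, 198 in BL_2, 340 in PFFs, 431 in PEBs and 489 in ES-like cells. For miR-30e-3p over miR-30c-1-3p, from 16.0 in BL_1 to 30.6 in PFFs, the intervals overlapped. These are ratios of reads, not of molecules.

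**Figure D4:**
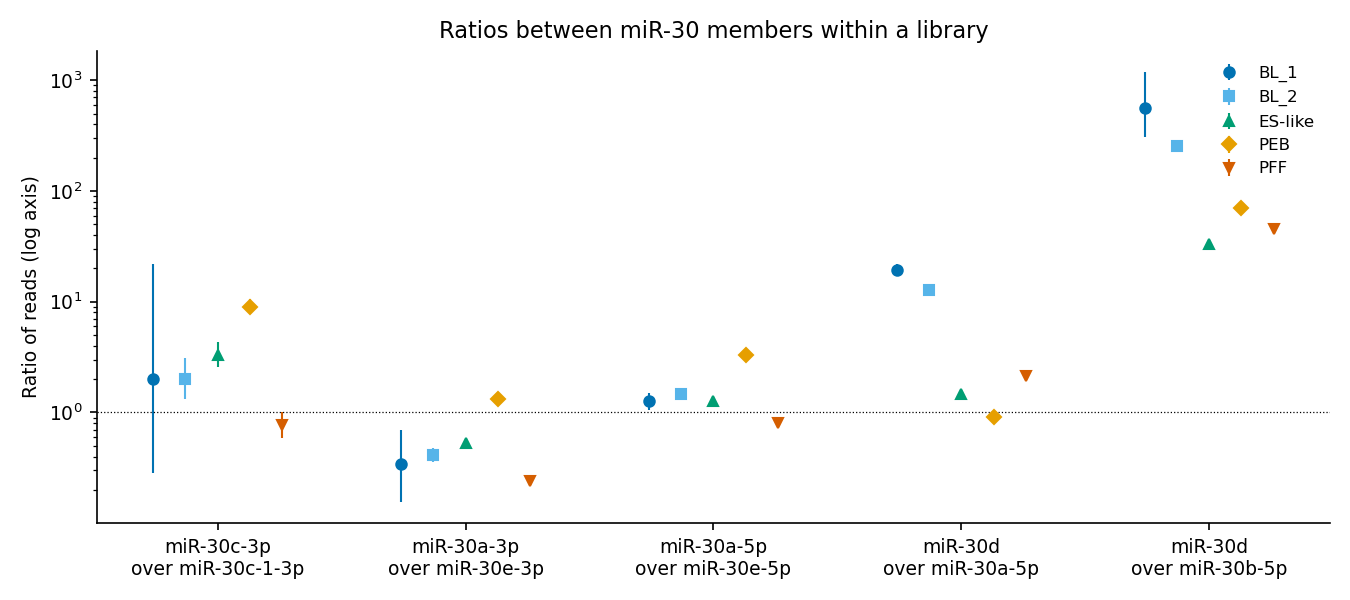
Ratio of the reads of paired miR-30 names within each of 5 libraries, on a log axis, with 95% exact intervals for counting error and a dotted line at 1. The ratios that set products of the MIR30A locus over those of the NFYC locus are highest in PEBs and lowest in PFFs, and both ratios of miR-30d are highest in BL_1 and BL_2.

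Profiles over the 5 libraries, as log2(RPM + 1) centred on the mean of each name, were compared by their root mean square (RMS) difference, as a description over 4 cell types. The arms of miR-30a were each other's nearest member, at 0.24. miR-30c-1-3p and miR-30e-3p, both from NFYC, were each other's nearest at 0.33, and miR-30c-3p lay nearest to miR-30a-3p, its neighbour, at 0.49. miR-30c-5p and miR-30e-5p were the nearest of all pairs, at 0.22. miR-30d lay apart, with miR-30b-3p as its nearest member at 0.67 and miR-30a-5p as its farthest at 1.75. Both arms of miR-30b lay nearest to names of another locus, the 5p arm to miR-30e-5p at 0.35 and the 3p arm to miR-30c-1-3p at 0.46.

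The 3p arms were minor throughout. They held 0.787% of the miR-30 reads of BL_1, 0.678% of those of BL_2, 2.63% in PFFs, 2.04% in PEBs and 1.93% in ES-like cells. The lower share in BLs went with the large part of miR-30d, which has no 3p name in the table. Without miR-30d, 3p names had 414 of 8149 RPM in the BL mean and 193 of 4550 in PFFs. They had 592 of 19163 RPM in ES-like cells and 802 of 25487 in PEBs, so that BLs no longer had the lowest share. Arm ratios were therefore taken for the other 4 members one by one.

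The arm ratio of miR-30a varied least of the 4, by 0.70 on the log2 scale over the 5 libraries. Its 5p reads outnumbered its 3p reads 38.95-fold in BL_2 (95% exact interval 34.4 to 44.2), 37.1-fold in PFFs (34.8 to 39.6), 38.4-fold in PEBs (37.4 to 39.4) and 42.9-fold in ES-like cells (40.4 to 45.5). In BL_1 the ratio was 26.5, where 11 reads of the 3p arm gave an interval from 14.6 to 53.6. The interval of ES-like cells lay above those of PEBs and PFFs. miR-30e had the smallest arm ratio of the 4 in cultured libraries. In the BL libraries miR-30b had the smallest value, but its intervals overlapped with those of miR-30e in both. For miR-30e it was 7.22 in BL_1 (4.97 to 10.8), 10.9 in BL_2 (10.1 to 11.9), 11.1 in PFFs (10.8 to 11.5), 15.5 in PEBs (15.0 to 16.0) and 17.8 in ES-like cells (17.05 to 18.59). Its 3p arm was thus relatively more frequent in BLs and PFFs than in ES-like cells and PEBs, and the intervals of BL_2 and PFFs overlapped.

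The arm ratio of miR-30b was lower in BL_2 than in each cultured library. It was 9.11 in BL_2 (6.90 to 12.2) against 20.7 in PEBs (17.6 to 24.5), 26.5 in PFFs (20.6 to 34.7) and 29.9 in ES-like cells (23.7 to 38.2). The interval of BL_2 lay below those of all 3 cultured libraries, while BL_1, at 10 to 2 reads, allowed from 1.07 to 46.9. miR-30c, with its 3p names summed, had ratios of 39.0 in BL_1, 63.9 in BL_2, 159 in PFFs, 46.0 in PEBs and 79.7 in ES-like cells. With the larger precursor row in place of the sum, those ratios were 19.5, 32.0, 79.6, 23.0 and 39.9, with the libraries in the same order.

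**Figure D5:**
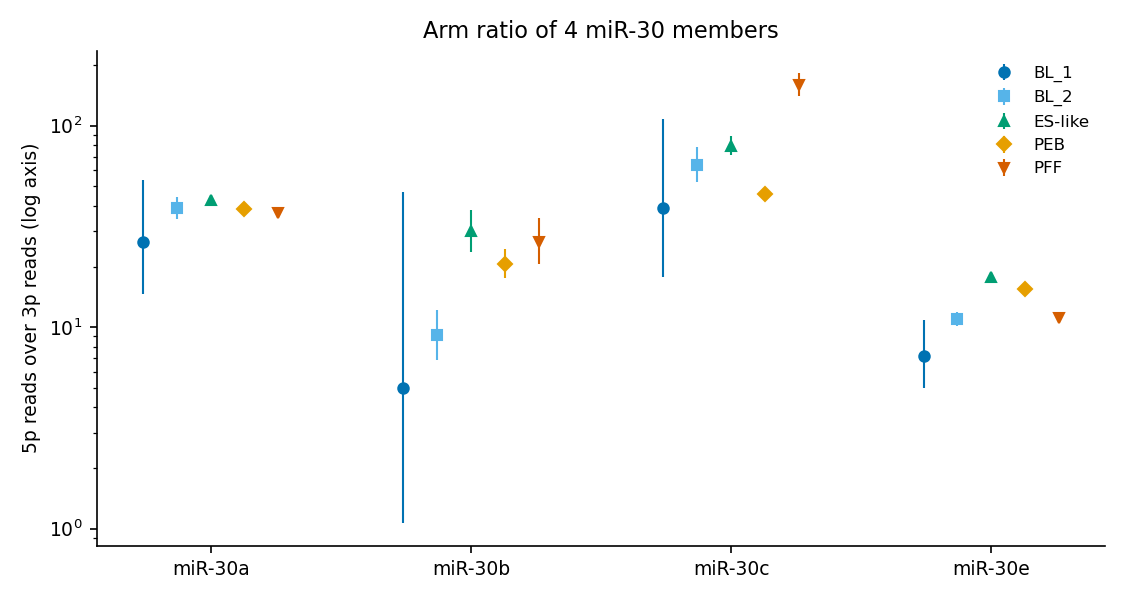
Reads of the 5p arm over reads of the 3p arm for miR-30a, miR-30b, miR-30c and miR-30e in 5 libraries, on a log axis, with 95% exact intervals for counting error. miR-30a lies between 37.1 and 42.9 in all libraries but BL_1, and the ratio of miR-30b is lower in BL_2 (9.11) than in cultured libraries.

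Of 148 other miRNAs with a mean of at least 100 RPM, miR-191 had the profile most like that of the summed miR-30 reads, with an RMS difference of 0.44 on the log2 scale over the 5 libraries. It had 7297 RPM in BL_1, 7424 in BL_2, 1730 in PFFs, 4553 in PEBs and 6992 in ES-like cells. miR-423-3p (0.49) and miR-92b-3p (0.53) followed, and the median of these miRNAs was 1.98.

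A list of 12 other miRNAs known, like miR-30, as repressors of matrix genes or of the epithelial-mesenchymal transition was set beside the family, of which 7 are in the table. Between BLs and cultured libraries edgeR's test called 2 of the 7, 1 higher and 1 lower in BLs, against 11.9% of all miRNAs. DESeq2 called 4 of the 7 (33.9% of all), miR-29b and miR-429 as well, both lower in BLs. miR-205, an epithelial miRNA, was higher in BLs, with 4748 and 5753 RPM against 0.702 in PFFs, 21.03 in ES-like cells and 71.7 in PEBs (log2 fold change 7.61 ± 1.71, adjusted p = 0.0409 in edgeR's test). miR-29a, known as a repressor of collagens, was lower in BLs, with 8.79 and 17.3 RPM against 1910 in PFFs, 3177 in PEBs and 3486 in ES-like cells (log2 fold change -7.54 ± 0.96, adjusted p = 0.0162 in edgeR's test). Without BL_1, BL_2 or PEBs neither was called, with adjusted p-values in edgeR's test from 0.0558 to 0.156 for miR-205 and from 0.05003 to 0.122 for miR-29a, and miR-205 was not called without ES-like cells (0.0786). Between pluripotent and differentiated samples edgeR called 0 of the 7, and DESeq2 called miR-205 (log2 fold change 7.21, adjusted p = 0.00763). By the 2-fold rule in RPM, BLs had 1 of the 7 higher and 5 lower than ES-like cells, where 23.5% and 52.6% of all miRNAs were. Against PEBs they also had 1 higher and 5 lower (25.3% and 51.2% of all), and against PFFs 2 higher and 3 lower (34.6% and 35.6%). ES-like cells had 0 higher and 1 lower than PEBs (21.8% and 18.6%) and 3 higher and 0 lower than PFFs (49% and 16.4%). PEBs had 3 higher and 0 lower than PFFs (41% and 13.9%).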

How the data were processed

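The authors trimmed reads with Cutadapt 1.10, aligned them with Bowtie 1.1.1 to the pig genome (Sscrofa10.2, per the labels) and assigned them to miRBase miRNAs with miRDeep2. They deposited raw read counts per pair of mature miRNA and precursor, without normalization. Here counts were summed over the 493 rows to 411 mature names (327 with a read, 66 on several rows, 1 row repeated) and divided by the mature reads of the library (RPM). Ratios used a pseudocount of 1 and miRNAs with at least 10 reads in a compared library. Intervals are at 95%: Poisson for levels, Wilson for shares, exact binomial for ratios. They cover counting error only, since PCR reads are not independent molecules. Tests used edgeR 4.0.16 (TMM, threshold 0.05) in R 4.3.3, with DESeq2 1.42.0, other scalings, filters and omitted libraries as alternatives. The named miRNAs are all members, the 3 most similar miRNAs, marker lists and related miRNAs. Members and lists were chosen with earlier results of these data known. The blood cell list (5 of 6 in the table) summed to 3.58 RPM in PFFs and at most 106 elsewhere. The table of predicted miRNAs outside miRBase was not used here, and no sequences are printed. Python 3.11.15 was used.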

Additional observations from a re-analysis of the deposited data

How the results depend on the processing

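Levels moved with the scaling, while ratios between members of a library, which need none, did not. The family level in BLs was 54893 with TMM, 63308 with DESeq2's size factors and 66545 RPM with the largest precursor count. In ES-like cells these were 18819, 22213 and 34577, in PEBs 39573, 29043 and 48638, and in PFFs 12506, 10886 and 7608. Members over 2-fold apart numbered 2 between BLs and ES-like cells with TMM and 2 with DESeq2's size factors (both higher in BLs), 6 between BLs and PEBs with either (1 higher and 5 lower with TMM, 3 and 3 with DESeq2's size factors), 3 between BLs and PFFs with TMM, 3 and 6 between ES-like cells and PFFs with TMM and DESeq2's size factors, and 4 between PEBs and PFFs with DESeq2's size factors. Between BLs and PFFs, miR-30a-3p, miR-30b-3p, miR-30c-1-3p, miR-30c-3p and miR-30d were over 2-fold higher in BLs with DESeq2's size factors. With TMM the log2 ratio of ES-like cells over PFFs turned to -0.079 for miR-30c-1-3p and -0.24 for miR-30e-3p. TMM shifted the median log2 ratio of all miRNAs in that comparison by -1.33. At 4-fold, the counts were 1, 2 and 3 for BLs against ES-like cells, PEBs and PFFs, 0 for ES-like cells against PEBs, and 5 and 4 for ES-like cells and PEBs against PFFs. No share of all miRNAs was taken at 4-fold, or at 2-fold with TMM or DESeq2's size factors, so these counts have no background. The counts of members called by these 2-fold comparisons were within 1.5 times with a pseudocount of 10, without the filter, with the largest precursor count and without BL_1 or BL_2.

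With the largest precursor count, miR-30d held 89.0, 85.5, 40.3, 37.4 and 41.8% of the miR-30 reads of BL_1, BL_2, the ES-like library, PEBs and PFFs, and miR-30c-5p 1.84, 2.21, 7.57, 6.65 and 10.21%. The log2 arm ratio of miR-30c was 5.00 in BL_2, 6.32 in PFFs, 4.52 in PEBs and 5.32 in ES-like cells, since the paired rows are then counted once.

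For BLs against cultured libraries, 1 member (miR-30d) was called with DESeq2 (log2 fold change 2.88), and with DESeq2's size factors in edgeR (2.88). With a library left out, from 0 to 1 member was called (miR-30d, without PFFs), and the log2 fold change of miR-30d ranged from 2.48 to 3.32. The cause was not tested. Several members that were not called changed sign. With a library left out, log2 fold changes ranged from -1.14 to 0.17 for miR-30a-3p, -1.02 to 0.89 for miR-30b-5p, -0.69 to 0.88 for miR-30c-3p, -0.67 to 0.41 for miR-30c-5p, -0.024 to 0.70 for miR-30e-3p and -0.90 to 0.25 for miR-30e-5p. miR-30e-3p was at -0.040 without the filter and -0.029 with the largest precursor count. For pluripotent against differentiated samples the ranges were -1.38 to 0.84 for miR-30a-3p, -1.43 to 0.83 for miR-30a-5p, -1.21 to 2.23 for miR-30c-3p, -0.58 to 0.23 for miR-30c-5p, -0.024 to 0.44 for miR-30e-3p and -0.60 to 0.46 for miR-30e-5p. DESeq2 and DESeq2's size factors gave 0.35 and 0.36 for miR-30e-3p and 0.15 and 0.15 for miR-30e-5p. Over all miRNAs, BLs against cultured libraries gave 35 calls with edgeR, 100 with DESeq2, 47 with DESeq2's size factors, 2 without BL_1, 1 without BL_2, 25 without ES-like cells, 1 without PEBs and 116 without PFFs. Where a side kept 1 library, that library was assumed to vary like the others. Pluripotent against differentiated samples gave 0 calls with edgeR and 15 with DESeq2, and without ES-like cells the fit is the same as for BLs against cultured libraries. No paired analysis was possible because only the BL libraries carry replicate numbers. Depth limits the 3p names in BL_1, which had from 2 to 32 reads.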
